A study of Mus musculus with 8 samples.

Results

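Forepaw skin of mice was examined here for 8 genes, the EGF receptor ligands Epgn, Areg, Ereg, Hbegf, Btc, Tgfa and Egf and the receptor gene Egfr, after an intradermal injection of PACAP or of vehicle. PACAP is pituitary adenylate cyclase-activating polypeptide, a neuropeptide. The genes were taken by name, as every non-control probe whose gene name in the scanner files was 1 of the 8, and no measured value entered this rule. It gave 10 of the 39429 probes on the array, 1 for each of the 7 ligands and 3 for Egfr.

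The mice were C57BL/6 (WT) or Adcyap1r1 -/- (PAC1R KO, which lack the PACAP receptor PAC1R), 6 of each, 9 to 10 weeks old and anaesthetised. Each injection was 5 µL of saline with 0.1% BSA into the footpad, with PACAP at 1e-07 mol/L or without it (vehicle), and skin was taken 30 or 60 min later. This gave 8 RNA samples in 4 comparisons of PACAP with vehicle, WT and KO at 30 and 60 min. Each pair of samples was hybridised on 2 Agilent 2-colour arrays with swapped dyes. Both arrays of a comparison carry the same RNA, so every comparison is 1 replicate, and no comparison by itself allows a test across animals. The sources used here do not give which of the mice contributed to a sample, or any pooling. All WT arrays were on 1 slide and all KO arrays on a second one. Genotype and slide therefore cannot be told apart.

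The ligands of the EGF receptor are made as membrane-bound precursors, and proteases of the ADAM family cut them free. A freed ligand binds EGFR on the same or a neighbouring cell, and the paired receptors signal through adaptor proteins to RAS and the kinases ERK1 and ERK2. In skin, keratinocytes make several of these ligands and respond to them, and the family is known for its roles in epidermal renewal, hair follicle growth and wound closure. PAC1R itself is a receptor that raises cyclic AMP, and the transcription factor CREB binds a short DNA element, the cAMP response element, in promoters of genes that answer to it.

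By RefSeq gene order, Epgn, Ereg, Areg and Btc are neighbouring protein-coding genes on mouse chromosome 5, in this order. RefSeq promoter windows of build GRCm38.p6, from 250 bases before to 50 bases after a gene's start, were matched for 6 of the 8 genes (7 windows, since Egf has 2). Windows of Ereg and Hbegf were not used here. The letters TGACGTCA, the full cAMP response element, were searched on both strands and were found in the Areg window, 61 bases before the start. They occur in 1.79% of the 32851 windows in the RefSeq table. Its shorter form TGACG, which the full element contains on both strands, was found in the windows of Areg, Epgn and Btc and occurs in 20.8% of all windows. None of the 7 windows held TGANTCA, the AP-1 site, which 7.81% of all windows hold. The stretches around these matches are shown because Areg and Epgn are the 2 ligands with the largest ratios below, and Btc shares the shorter form. Capitals mark the full element in Areg and the shorter form in Epgn and Btc, where Btc carries it on the opposite strand.
Areg, chr5:91139492-91139591, plus strand: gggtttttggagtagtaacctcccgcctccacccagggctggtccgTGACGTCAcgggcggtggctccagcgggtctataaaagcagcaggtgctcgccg
Epgn, chr5:91027370-91027466, plus strand: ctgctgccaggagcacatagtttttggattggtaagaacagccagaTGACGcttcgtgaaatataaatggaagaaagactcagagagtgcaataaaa
Btc, chr5:91403057-91403153, minus strand: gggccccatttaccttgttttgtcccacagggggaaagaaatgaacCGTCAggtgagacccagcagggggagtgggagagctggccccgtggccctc
These matches describe the sequence, and binding of a factor was not measured.

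A ratio below is PACAP over vehicle on the log2 scale, from the authors' dye-normalized log ratios, and a level is a log2 intensity in 1 RNA sample. A probe was called up-regulated at a mean of 2-fold or higher, and down-regulated at 0.5-fold or lower, provided that each array pointed the same way with a scanner p below 0.01. This p is given by the scanner software, Feature Extraction, for each array and says nothing of animals. Per array, 78.6% to 94.5% of red and 54.0% to 65.3% of green signals were well above background. Among the 30359 probes well above background in a channel of every array, both arrays of a comparison agreed in direction at 44.1% to 62.4%. Their ratios correlated between -0.44 and -0.08, so a single array says little. Of the 10 probes here, 7, 6, 10 and 7 had the same direction on both arrays in the order WT 30, WT 60, KO 30, KO 60 min. In all 16 channels 9 of the 10 were well above background, and Tgfa was in 11. Precision is limited by this small number of arrays.

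The labels were checked with Adcyap1r1, the deleted gene. Its level in vehicle-treated skin was 8.28 and 8.67 in WT and 7.98 and 8.56 in KO at 30 and 60 min, lower in KO at both times but by little. Where the deletion lies relative to the probe is not given in the sources used here, so samples are called WT and KO by their labels. The epidermal list, with the keratins of the basal and upper layers among its 15 genes, was well above background for 15 of 15 genes in every vehicle sample.

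Of the 10 probes, 1 was called up-regulated in any comparison, and 0 were called down-regulated. That probe was Epgn in KO mice at 30 min, where 0.601% of all probes were up-regulated and 0.107% down-regulated. The members gave 0 calls in WT at 30 min (0.254% of all probes up, 0.0964% down), in WT at 60 min (0.583% up, 0.109% down) and in KO at 60 min (0.142% up, 0.15% down). Under normexp and loess, fewer probes were called in each comparison, with 32 up and 25 down in WT at 30 min in place of 100 and 38. Epgn, Areg, Hbegf and 1 of the Egfr probes had positive ratios on every KO array, and Ereg and Btc had negative ratios there. Some of these were small, such as -0.01 and -0.02 for Btc, and the share of all probes with such a pattern was not counted. In WT mice Areg had negative ratios and Ereg positive ratios on every array.

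**Figure D1:**
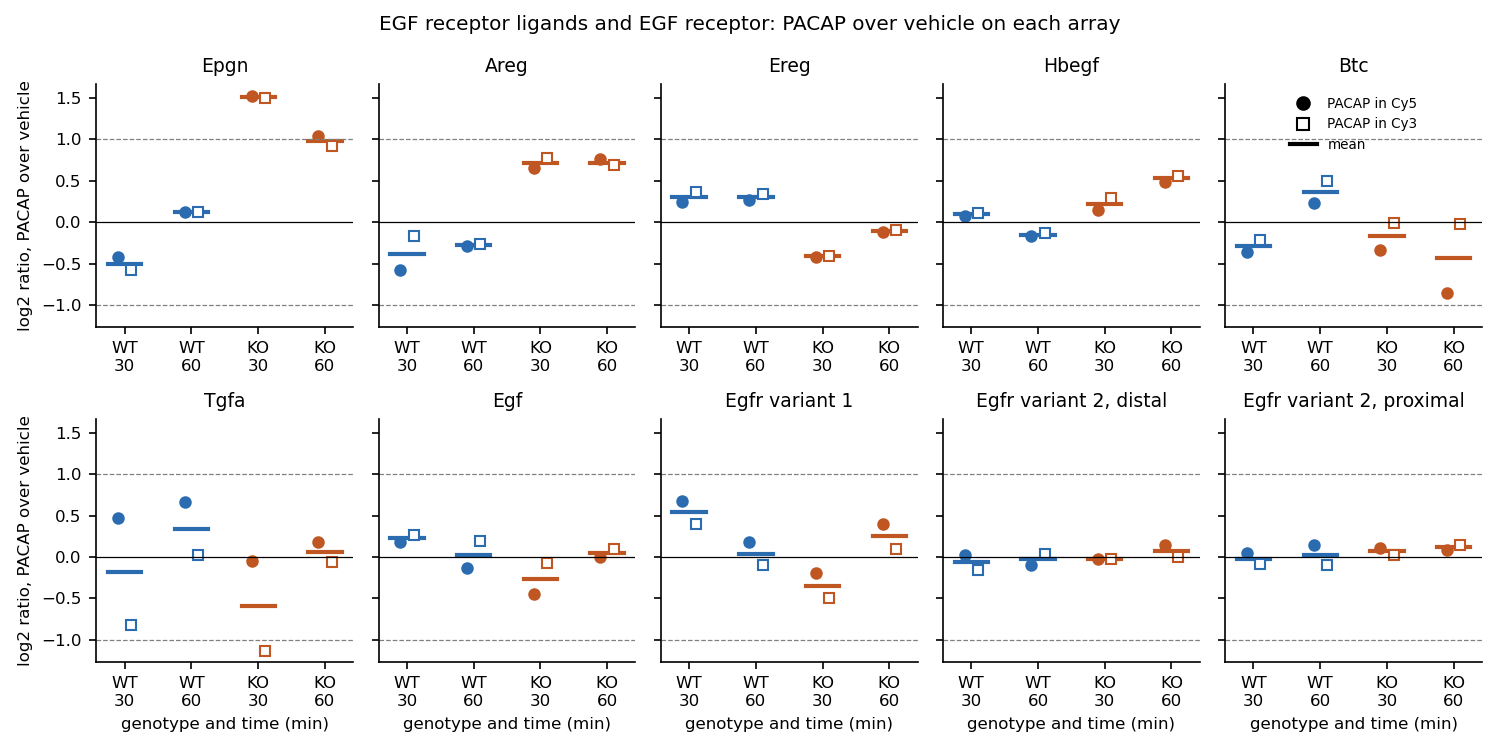
The log2 ratio of PACAP over vehicle (vertical axis) of the 10 probes in WT and KO at 30 and 60 min, with PACAP in Cy5 (filled circle), PACAP in Cy3 (open square) and their mean (bar). Dashed lines mark 2-fold and 0.5-fold, and only Epgn in KO at 30 min has both arrays beyond a line by more than the gap between its arrays.

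Epgn encodes epigen, a ligand of low affinity for the EGF receptor that is made by epithelia. The probe (NM_053087) reads chromosome 5 of mm9, plus strand, positions 91464119 to 91464178. In KO mice at 30 min its ratio was 1.53 with PACAP in Cy5 and 1.5 with PACAP in Cy3, a mean of 2.86-fold, and the scanner p was 6.8e-10 and 1.2e-09. In KO at 60 min the ratio was 1.04 and 0.92, a mean of 1.97-fold, which lies just under the 2-fold threshold, and the p was 3.9e-06 and 3e-05. Both KO comparisons thus had a ratio far larger than the gap between their arrays, which carry the same RNA and show technical spread only. In WT mice the ratio was -0.42 and -0.58 at 30 min and 0.12 and 0.12 at 60 min. Of all probes well above background, 99.5% had a lower ratio than Epgn in KO at 30 min and 99.7% in KO at 60 min, against 3.72% and 75.1% in WT at 30 and 60 min.

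The level of Epgn in vehicle-treated skin was 8.98 and 8.44 in WT and 8.22 and 8.95 in KO at 30 and 60 min. After PACAP it was 8.57 and 8.51 in WT and 9.54 and 9.86 in KO. The 2 PACAP samples of KO were the highest of the 8, and the other 6 overlapped between genotypes. The limma test of KO minus WT took the 30 and 60 min values as the replicates of a genotype. By it the PACAP effect was larger in KO than in WT by 1.44 (standard error 0.30, unadjusted p = 0.003, adjusted p = 0.84). The difference did not pass the adjusted threshold. It was 1.75 without the WT comparison at 60 min and 1.13 without that at 30 min. Each of these fits had a lone WT value. Their standard error was 0.42 for all 10 probes, so the spread of Epgn itself did not enter.

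Areg encodes amphiregulin, an autocrine growth factor of keratinocytes. Its probe (NM_009704) lies on chromosome 5 from 91570090 to 91570149 on the plus strand. In KO mice the ratio was 0.66 and 0.78 at 30 min and 0.76 and 0.69 at 60 min, a mean of 1.65-fold at both times. The scanner p was 0.0031 and 0.00059 at 30 min and 0.00048 and 0.0016 at 60 min. The p was thus below 0.01 on every KO array while the fold missed the threshold, and Areg joined Epgn as called at both times in KO when the threshold was 1.5-fold. In WT mice the ratio was -0.58 and -0.17 at 30 min and -0.29 and -0.26 at 60 min, a mean of 0.77-fold and 0.828-fold. With normexp background correction and loess in place of the authors' normalization, the Areg means at 30 and 60 min were 1.30-fold and 1.47-fold in KO mice, against 0.861-fold and 0.911-fold for WT.

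The level of Areg was 7.44 and 7.13 in WT and 6.87 and 7.31 in KO after vehicle, and 7.22 and 7.00 in WT and 7.25 and 7.87 in KO after PACAP. Only the PACAP sample of KO at 60 min stood above all vehicle samples. Areg was higher after PACAP on all 4 KO arrays and lower on all 4 WT arrays, a pattern found at 213 of 30351 probes (0.702%). By limma the PACAP effect differed between KO and WT by 1.05 (standard error 0.19, unadjusted p = 0.0014, adjusted p = 0.84), which did not pass the adjusted threshold. Under normexp and loess the difference was 0.65 (adjusted p = 0.85 from limma).

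Ereg encodes epiregulin, a ligand that binds both EGFR and ERBB4. The probe (NM_007950) lies on chromosome 5 from 91522553 to 91522612 on the plus strand. In WT mice its ratio was 0.24 and 0.36 at 30 min and 0.27 and 0.34 at 60 min, a mean of 1.23-fold and 1.24-fold. In KO mice it was -0.42 and -0.41 at 30 min and -0.12 and -0.09 at 60 min, a mean of 0.75-fold and 0.93-fold. No scanner p of Ereg was below 0.01. The ratios were lower on all 4 KO arrays and higher on all 4 WT arrays, which was so for 245 of 30351 probes (0.807%).

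The level of Ereg after vehicle was 11.76 and 11.74 in WT and 11.50 and 12.11 in KO. After PACAP it was 12.07 and 12.01 in WT and 11.09 and 11.99 in KO. Both the lowest PACAP sample and the highest vehicle sample were from KO mice, so the levels of the genotypes overlapped. The PACAP effect in KO minus WT was -0.56 by limma (standard error 0.21, unadjusted p = 0.034, adjusted p = 0.84).

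**Figure D2:**
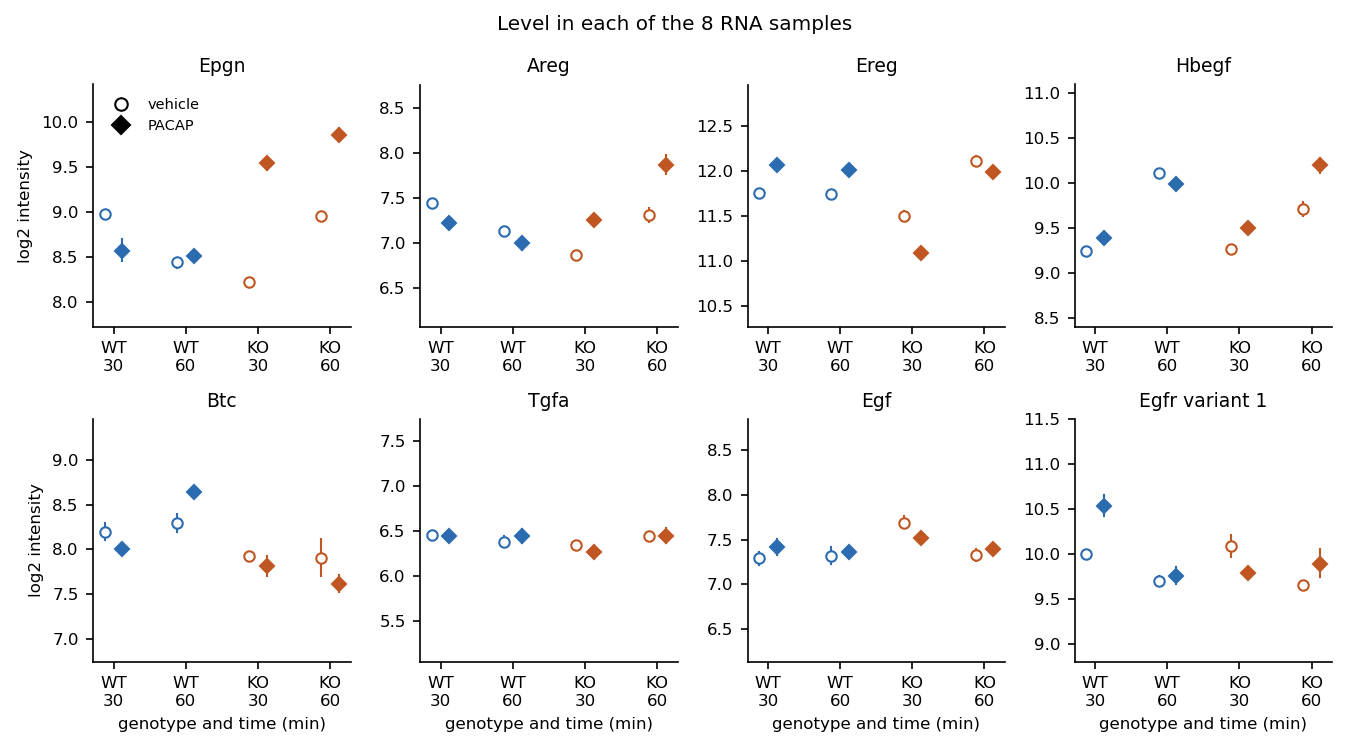
The log2 intensity (vertical axis, the same span in every panel) of 7 ligand probes and the brightest Egfr probe in each RNA sample, vehicle as open circles and PACAP as filled diamonds. Vertical lines join both arrays of a sample; Epgn stands highest in the PACAP samples of KO, at 9.54 and 9.86.

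Hbegf encodes heparin-binding EGF-like growth factor, a ligand known from migrating keratinocytes at wound edges. Its probe (NM_010415) lies on chromosome 18 from 36664738 to 36664797 on the minus strand. In WT mice the ratio was 0.08 and 0.11 at 30 min and -0.17 and -0.13 at 60 min. In KO mice it was 0.15 and 0.29 at 30 min and 0.49 and 0.56 at 60 min. The largest value, in KO at 60 min, was 1.44-fold, and the scanner p was 0.019 and 0.0078. Hbegf was not called in any comparison, and the PACAP effect in KO minus WT was 0.40 by limma (standard error 0.22, adjusted p = 0.84). This difference was 0.25 without KO at 60 min and 0.55 without KO at 30 min.

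Btc encodes betacellulin, another ligand that binds both EGFR and ERBB4. The probe (NM_007568) lies on chromosome 5 from 91786948 to 91787007 on the minus strand. Its ratio was -0.36 and -0.22 at 30 min and 0.23 and 0.50 at 60 min in WT mice. In KO it was -0.33 and -0.01 at 30 min and -0.85 and -0.02 at 60 min. The KO value at 60 min thus rests on 1 array (scanner p 0.00011 and 0.93).

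Tgfa encodes transforming growth factor alpha, and Egf encodes the founding ligand of the family. Both probes were printed on 10 spots. The Tgfa probe (ENSMUST00000032066.12, chromosome 6 from 86224838 to 86224897, plus strand) was dim, with levels between 6.27 and 6.46 in the 8 samples. Its ratio was 0.47 and -0.82 for WT and -0.05 and -1.13 for KO at 30 min, so the arrays did not give 1 value. At 60 min it was 0.66 and 0.02 in WT and 0.18 and -0.06 in KO. The Egf probe (NM_010113, chromosome 3 from 129380826 to 129380885, minus strand) had levels between 7.29 and 7.69. Its mean ratio was 0.23 and 0.03 in WT and -0.26 and 0.05 in KO at 30 and 60 min, and neither gene was called. Levels of different probes are not set against each other, since probes differ in how brightly they read.

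Egfr had 3 probes on chromosome 11, all on the plus strand. The first (NM_207655, transcript variant 1, from 16813815 to 16813874, 10 spots) had a ratio of 0.68 and 0.40 at 30 min and 0.18 and -0.10 at 60 min in WT mice. In KO mice it was -0.19 and -0.50 at 30 min and 0.40 and 0.10 at 60 min. At 30 min the WT mean was 1.46-fold and the KO mean 0.786-fold, and its spots ranged from 1.42-fold to 1.49-fold and from 0.77-fold to 0.807-fold. The spread between spots was thus far smaller than that between the dye-swapped arrays, and it covers the printing of the array only. The other 2 probes (NM_007912, transcript variant 2, from 16787172 to 16787231 and from 16783556 to 16783615) had mean ratios between -0.06 and 0.12 in all 4 comparisons. The receptor's probes therefore gave different values at 30 min, and none was called. The level of the variant 1 probe was 10.00 and 9.70 in WT and 10.09 and 9.65 in KO after vehicle, and 10.54 and 9.76 in WT and 9.79 and 9.89 in KO after PACAP.

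The mean of all 4 comparisons was tested with limma over 30357 probes, each comparison as 1 value. The estimates of the 10 probes lay between -0.13 for Btc and 0.53 for Epgn (standard error 0.32), and none had an unadjusted p below 0.05. When each comparison in turn was left out, Epgn ranged from 0.20 to 0.87 (unadjusted p = 0.016 from limma without WT at 30 min) and Btc from -0.30 to -0.03. With slide as a block, Epgn had a standard error of 0.15 and an unadjusted p of 0.012 from limma. The adjusted p from limma for Epgn was between 0.76 and 1.0 in these fits. Over all probes 0 passed the adjusted p of 0.05 and 679 (2.24%) had an unadjusted p below 0.05. The Epgn estimate joins a WT mean of -0.19 and a KO mean of 1.25, and that of Areg, 0.20, joins -0.33 and 0.72. When each comparison in turn was left out, the Areg estimate ranged from 0.02 to 0.39. For the PACAP effect in KO minus WT, 0 of 30357 probes passed the adjusted p and 972 (3.2%) had an unadjusted p below 0.05, among them 3 of the 10 probes here, Epgn, Areg and Ereg. The 2 largest differences among the members were those of Epgn and Areg, both higher in KO. With the time point as a covariate, 17 probes passed the adjusted p over all probes and none of the members did.

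**Figure D3:**
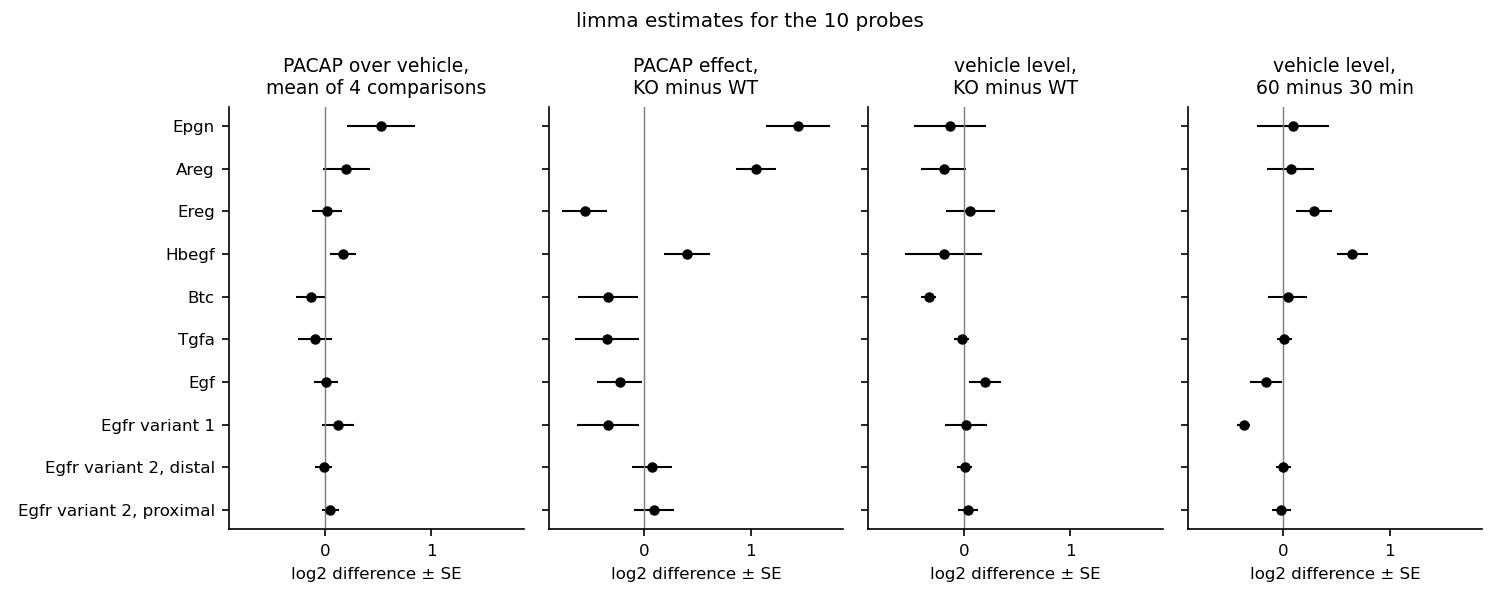
The limma estimates of the 10 probes on the log2 scale (horizontal axis) with their standard errors, in 4 tests. Epgn (1.44) and Areg (1.05) lie farthest above 0 for the PACAP effect in KO minus WT, and no estimate passed the adjusted p of 0.05.

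Levels after vehicle alone were compared between genotypes and between times, over 37544 probes. For KO minus WT, 0 probes passed limma's adjusted p and 2423 (6.45%) had an unadjusted p below 0.05. Btc was the 1 member among these, lower in KO by 0.33 (means of 7.92 in KO and 8.25 in WT, standard error 0.07, unadjusted p = 0.01, adjusted p = 0.76). The estimates of all members lay between -0.33 and 0.20, the latter for Egf. The Egf estimate was 0.02 without the KO vehicle sample at 30 min and 0.39 without that at 60 min.

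For 60 minus 30 min after vehicle, 0 probes passed the adjusted p and 6291 (16.8%) had an unadjusted p below 0.05. Hbegf had a level of 9.25 (WT) and 9.27 (KO) at 30 min, and of 10.11 (WT) and 9.71 (KO) at 60 min. Both vehicle samples at 60 min were above both at 30 min, by 0.65 on average (standard error 0.15, unadjusted p = 0.014, adjusted p = 0.21 from limma). Of all probes, 23.6% had this order and 26.5% the opposite one, against 1 and 1 of the 10 member probes, so such an order is common. In PACAP-treated skin Hbegf was 9.39 and 9.5 at 30 min and 9.99 and 10.20 at 60 min in WT and KO, so the same order was seen. The variant 1 probe of Egfr was lower at 60 min by 0.37 on average (standard error 0.06, unadjusted p = 0.0052, adjusted p = 0.19 from limma). The variant 2 probes gave 0.00 and -0.02 in this test (unadjusted p = 0.99 and 0.84), so the difference was seen at 1 of the 3 Egfr probes. After PACAP the variant 1 probe was lower at 60 min in WT (10.54 and 9.76) but not in KO (9.79 and 9.89), with an average of -0.34 (standard error 0.29, unadjusted p = 0.32 from limma). Another fit took both arrays of each sample as values, with the comparison as a block and the dye orientation as a covariate. The limma adjusted p was 0.029 for Hbegf and 0.040 for the Egfr variant 1 probe, against 1.0 and 0.93 for the variant 2 probes. That fit called 4.45% of all probes. It treats arrays of the same RNA as separate values with a correlation shared by all probes.

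The other genes of the pathway were described from 6 lists of 63 genes, of which 62 were on the array under the listed name. In every comparison 0 of the 62 were called. By their brightest probe, 0 passed limma's adjusted p in the 4 tests above, of 61 tested for PACAP and 62 for the vehicle levels. With both arrays as values and the comparison as a block, 9 of the 62 passed for 60 minus 30 min after vehicle. In that fit 1671 of 37538 probes (4.45%) passed in all. The number with a ratio above 0 at 30 min was 42 for WT and 13 for KO. At 60 min it was 32 for WT and 41 for KO. The pathway genes thus lay mostly below 0 in KO at 30 min, where Epgn and Areg were higher after PACAP. In the order WT 30, WT 60, KO 30 and KO 60 min, which holds for all series of 4 values that follow, the median ratio of all tested probes was -0.05, -0.01, -0.01 and 0.00.

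Among the other receptors (3 genes), the median was between -0.21 and 0.06. Erbb2, the partner that binds no ligand, had ratios of -0.05, -0.11, -0.21 and 0.07. Erbb3, the receptor with little kinase activity, whose probe was not well above background in every vehicle sample, had -0.41, -0.11, -0.22 and 0.06. Of the neuregulins (4 genes), ligands of ERBB3 and ERBB4, Nrg4 had 0.25, 0.42, -0.13 and 0.06, and Nrg2 had 0.13, -0.09, -0.63 and 0.21. Each of these genes had ratios of both signs among the 4 comparisons.

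The sheddases and their partners (10 genes) had a median of 0.21 in WT at 30 min, with 10 of 10 above 0, and of -0.32 in KO at 30 min, with 2 of 10 above 0. At 60 min the medians were 0.03 in WT and 0.12 in KO. The metalloproteases Adam8, with 0.16, 0.40, 0.74 and 0.22, and Adam12, with 0.18, 0.45, 0.55 and 0.14, had positive ratios throughout, while Adam15 had 0.24, -0.08, -0.76 and 0.11. The inhibitors of the receptor (12 genes) had medians of 0.11, 0.05, -0.33 and -0.05. Among them Errfi1, which binds and blocks the receptor's kinase domain, had 0.40, 0.04, -0.63 and 0.05. The ubiquitin ligase Cblc had -0.39, -0.18, -0.31 and -0.08, and the phosphatase Ptpn1 had -0.26, 0.08, -0.41 and -0.16.

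The adaptors and the RAS-ERK cascade (17 genes) had medians of 0.11, 0.03, -0.26 and 0.06, with 13 of 17 above 0 in WT and 1 of 17 in KO at 30 min. The exchange factor Sos1, whose probe was not well above background in every vehicle sample, had 0.35, 0.12, -1.15 and -0.07. The adaptor Grb2 had 0.01, -0.02, -0.45 and 0.03, and the kinase gene Mapk3 had 0.14, -0.04, -0.10 and -0.03. The early targets of growth factor signalling (16 genes) had medians between -0.09 and 0.14. Egr1, an immediate early transcription factor, had 0.96, -0.18, -0.10 and 0.12. Plaur, the urokinase receptor, had 0.02, -0.25, 0.81 and 0.34, and Ier3 had -0.21, -0.27, 0.08 and 0.02. Egr1 thus had its largest ratio in WT at 30 min, and Plaur in KO at 30 min.

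**Figure D4:**
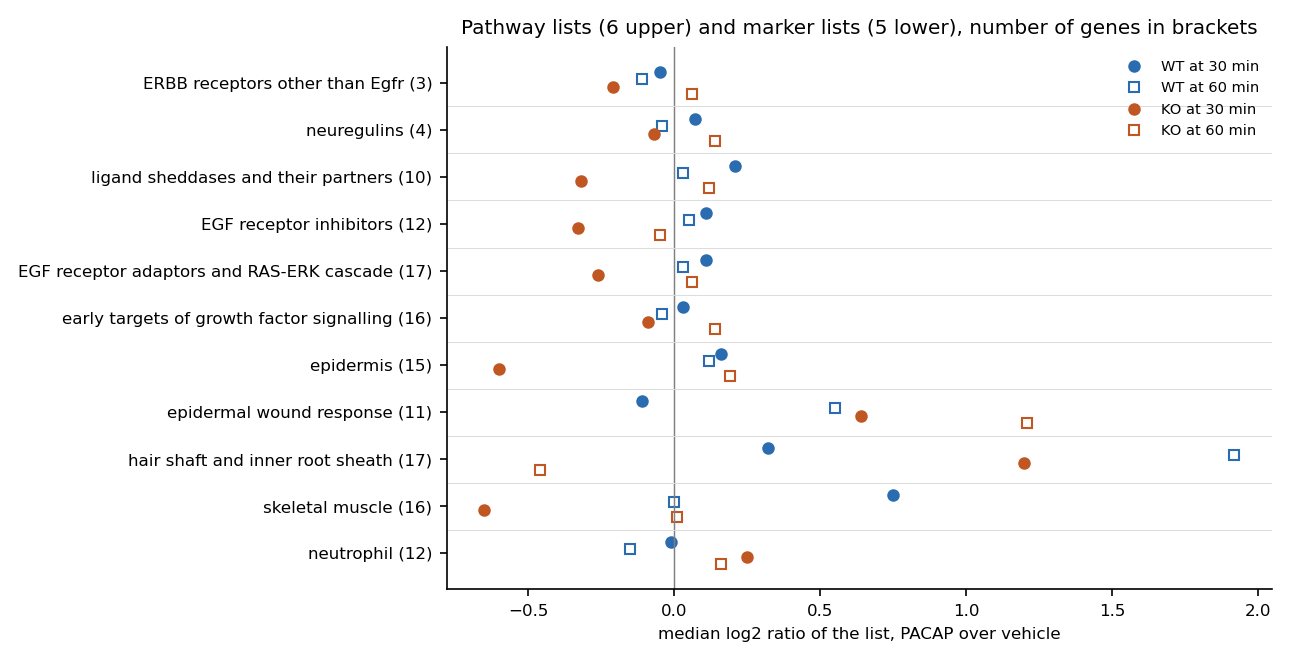
The median log2 ratio of PACAP over vehicle (horizontal axis) of 6 pathway lists and of 5 marker lists in the 4 comparisons, with the number of genes on the array in brackets. In KO at 30 min the pathway lists lie at or below -0.07 and the epidermal list at -0.60, while the epidermal wound response list lies at 0.64.

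Of 10 marker lists for cells that paw skin may hold, 4 held 0 called genes in every comparison, and the others held called genes in at least 1 comparison. The epidermal wound response list (11 genes) had a median of -0.11 and 0.55 in WT and of 0.64 and 1.21 in KO at 30 and 60 min, with 0, 4, 5 and 7 of its genes up-regulated by at least 1 probe. These were Krt6b, Krt16, Krt17 and Sprr2d in WT at 60 min and Krt6b, Krt16, Krt17, S100a8 and S100a9 in KO at 30 min. Its summed intensity after vehicle was 128000 and 74600 in WT and 96500 and 83300 in KO. After PACAP it was 124000 and 120000 in WT and 169000 and 281000 in KO, so the PACAP samples of KO were highest, as they were for Epgn. Of all marker genes, S100a8 had the highest mean ratio over the comparisons (1.47) and Fabp1 of the hepatocyte list the lowest (-0.84). The epidermal list (15 genes) had medians of 0.16 and 0.12 in WT and of -0.60 and 0.19 in KO, with 0 of 15 above 0 in KO at 30 min, where Krt1 and Krt10 were down-regulated. The part of these shifts in the values of Epgn, Areg and Ereg was not tested. Fewer cells of a type and less RNA per cell cannot be told apart in bulk skin.

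Skeletal muscle genes (16) had a median of 0.75 for WT and -0.65 for KO at 30 min, where Acta1 and Actn3 were down-regulated, and of 0.00 and 0.01 at 60 min. Egfr variant 1 went in the same directions at 30 min, as did several other lists, among them the epidermal list and the sheddases. The part of muscle in the Egfr value was not tested. Hair shaft and inner root sheath genes (17) had medians of 0.32 and 1.92 in WT and of 1.20 and -0.46 in KO. The neutrophil list (12) had -0.01 and -0.15 in WT and 0.25 and 0.16 in KO, with Fpr1, Retnlg and Stfa1 up-regulated in KO at 30 min and Stfa1 at 60 min. Hepatocyte genes (12) had a median of -1.12 in WT at 60 min, with 7 genes down-regulated and 3 of the 12 well above background in every vehicle sample. The lists of eccrine gland, mast cell, macrophage and dendritic cell, and salivary and kidney epithelium, the last of these for known sources of Egf, held 0 called genes in every comparison. The kidney gene Slc12a1 was never well above background.

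The genes whose level followed Epgn and Ereg most closely over the 8 RNA samples were taken from 20285 probes well above background in every sample. For Epgn the 4 genes given are Lce3e (Pearson r = 0.975), Stfa1 (0.967), Lce3f (0.942) and Car2 (0.937). Lce3e and Lce3f encode late cornified envelope proteins, Stfa1 a cysteine protease inhibitor and Car2 a carbonic anhydrase. In the PACAP samples of KO, Lce3e was at 11.29 and 11.69 and Stfa1 at 12.94 and 13.78 at 30 and 60 min, each above its 6 other samples. For Ereg the 5 genes were Chmp4b (0.987), Rab43 (0.985), Zfp58 (0.975), Tatdn2 (0.974) and Zfp747 (0.966). Chmp4b encodes a subunit of the membrane-remodelling ESCRT-III complex and Rab43 a small GTPase. These correlations describe 8 samples that share 8 arrays in pairs, and each was the highest among many.

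**Figure D5:**
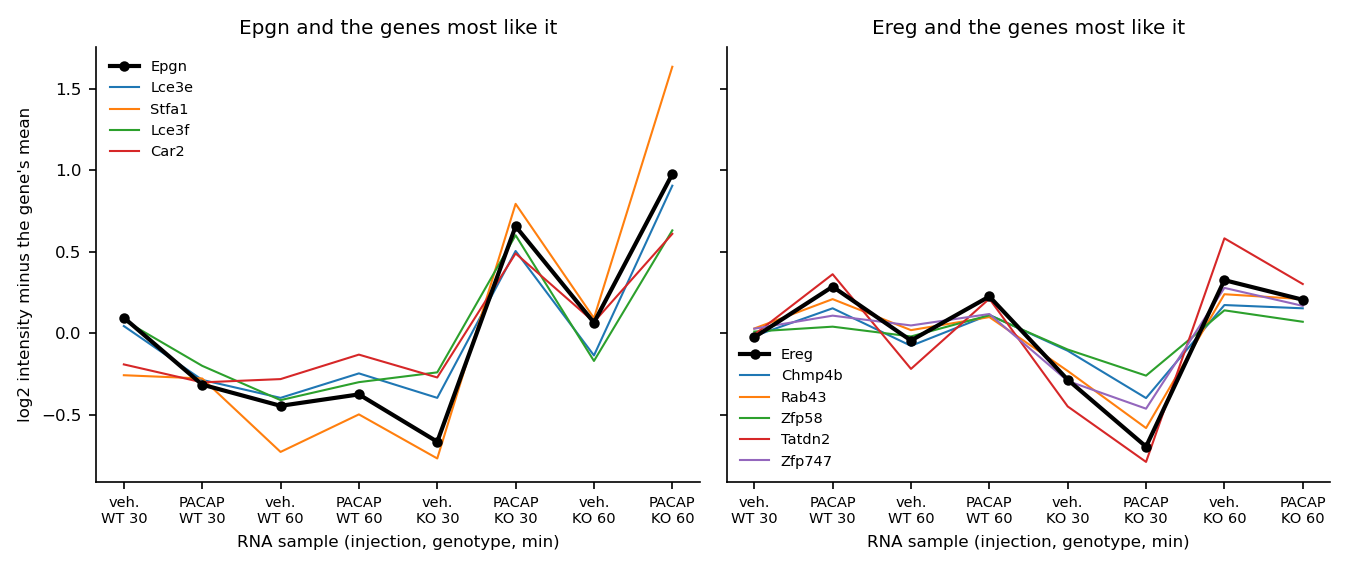
The log2 intensity minus each gene's own mean (vertical axis) in the 8 RNA samples (horizontal axis), for Epgn (left) and Ereg (right), in black, with the 4 and 5 genes of high correlation named in the text in colour. Lines join samples for reading only; the Epgn set peaks in the PACAP samples of KO, and the Ereg set is lowest in the PACAP sample of KO at 30 min.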

How the data were processed

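Arrays were scanned and extracted by the authors with Agilent Feature Extraction (12.0.3.1 per the file headers, 11.0.1.1 per the labels). The authors' methods name an earlier version. The red-over-green log10 ratios and p-values deposited for each spot follow background subtraction and LOWESS within each array. The deposited intensity values are mean and background signals per channel. Here ratios were turned to PACAP over vehicle by the dye labels, converted to log2, and averaged over spots and both arrays, without control and outlier spots. The authors' series matrix, also on the log10 scale, was an alternative. Levels are log2 intensities after normexp (offset 50), loess and Aquantile. Tests were made with limma 3.58.1 in R 4.3.3 (lmFit, eBayes, Benjamini-Hochberg over all probes tested), with Python 3.11.15 for summaries. PACAP tests took probes well above background in a channel of every array, and level tests those above it in a vehicle sample. Steps were tested on simulated data. Same-numbered arrays share the dye orientation, and their deviations correlated between 0.703 and 0.847 across comparisons. The p-values measure the spread between these samples. Genes and lists were chosen with earlier results of these data known. Named were all members, and of each pathway list the 2 genes of largest mean ratio, the gene of highest intensity (to choose names only) and any gene called, the marker genes of highest and lowest mean ratio, and the 5 genes of highest correlation, of which 1 is not reported here. Other marker genes were named after their values were seen. Probe coordinates are mm9, from the files, and promoter coordinates are GRCm38.p6, from RefSeq.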

Additional observations from a re-analysis of the deposited data

Results flagged for a closer look

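Areg had a PACAP effect below 0 in both WT comparisons and above 0 in both KO comparisons, with a difference of 1.05 on the log2 scale (KO minus WT), or 0.65 under normexp and loess. The difference was tested by limma, and its adjusted p was 0.84. Ereg went the opposite way, above 0 in both WT comparisons and below 0 in both KO comparisons, with a difference of -0.56 and the same adjusted p from limma. Tgfa was below 0 in both genotypes at 30 min and above 0 in both at 60 min, with a difference of 0.58 between the times. Under normexp and loess it was 0.08, and KO at 60 min was at 0.00. The difference was not tested, and the arrays of Tgfa gave opposite signs in WT at 30 min and in KO at 60 min.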

How the results depend on the processing

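Epgn in KO at 30 min was called under every alternative run. With a 1.5-fold threshold, 2 member probes were called in KO at both 30 and 60 min. Single arrays gave between 0 and 1 member calls in KO at 60 min, 1 in KO at 30 min and 0 in WT at both times. Over all probes 138, 273, 279 and 115 were called in WT at 30 and 60 min and KO at 30 and 60 min. Normexp and loess gave 57 (32 up and 25 down, against 100 and 38), 170 (160 and 10, against 230 and 43), 164 (154 and 10, against 237 and 42) and 72 (29 and 43, against 56 and 59). A 1.5-fold threshold gave 549, 1069 and 225 in WT at 30 min and KO at 30 and 60 min, and no p filter gave 222 and 434 in WT and KO at 30 min. Single arrays gave 612 to 870, 679 to 837, 881 to 1197 and 446 to 701. For KO minus WT, time as a covariate gave 17 probes, and leaving out a comparison gave 0 to 170 (170 without WT at 30 min, 83 without WT at 60 min). For the mean effect these were 0 to 1 (1 without WT at 30 min), and 0 for both vehicle tests. Some member probes had a mean PACAP effect within 1 slide that was opposite in sign to that of all comparisons. Within the WT slide this was so for Epgn (-0.19), Areg (-0.33), Hbegf (-0.02), Btc (0.04) and Tgfa (0.08). Within the KO slide it was so for Ereg (-0.26), Egf (-0.10), Egfr variant 1 (-0.05) and the more distal Egfr variant 2 probe (0.02). The share of all probes with such signs was not counted, and several of these means are small. The fits with both arrays as values moved the vehicle test of time from 0 to 1671 probes. They moved its call for Hbegf, the Egfr variant 1 probe and 9 pathway genes, and changed no other member call. Of the 40 member ratios, 1 changed sign under normexp and loess, an Egfr probe near 0. The cause of these shifts was not tested. Without a WT comparison, KO minus WT gave all 10 probes a standard error of 0.42, which is not each probe's own spread. Dim signals limit Tgfa.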
